A study of Mus musculus with 6 samples.

Results

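The 36 genes described here encode the enzymes and transporters of glycolysis and the genes of the cellular response to low oxygen. They were listed by name, with earlier results of these data known. Of the 36 genes, 32 had at least 1 probe set annotated to that gene alone, among 13817 genes measured in this way, and each gene was represented by its brightest probe set, judged by the mean of all 6 arrays. Those 32 genes had 73 probe sets in all. No probe set was annotated to Gpi1 (glucose-6-phosphate isomerase) or Eno1 (enolase), and the probe sets of Gapdh (2 probe sets) and of the mitophagy receptor gene Bnip3l (3 probe sets) were shared with pseudogenes, so that these 4 genes are outside every count.

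Glycolysis breaks glucose down to pyruvate, and articular chondrocytes, which live in a tissue without blood vessels, draw most of their energy from it and export lactate. At normal oxygen tension the prolyl hydroxylases encoded by the Egln genes mark the alpha subunits of the hypoxia-inducible factors (HIF) for degradation. At low oxygen tension the alpha subunits accumulate, pair with ARNT and raise the transcription of glucose transporters, glycolytic enzymes and many other target genes.

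RNA was profiled on Affymetrix mouse arrays from male mice aged 6 weeks. The tissue was the cartilage of the tibial plateau with the bone beneath it, dissected in 1 piece together with the marrow between the trabeculae and the upper growth plate. Each of the 6 arrays held 1 joint of 1 mouse, and the values are RMA expression values on the log2 scale. All mice carried the C57Bl/6J background. The 3 wild-type mice (numbered 6-1, 8-1 and 9-1) were compared with 2 Frzb-/- mice (numbered 14 and 17), which lack in every cell the gene for a secreted antagonist of WNT signaling and came from a single back-crossed line. Another mouse labelled Frzb-/-, animal 6, is shown apart. The study re-genotyped 1 of the mice with that label as heterozygous and left it out, without its number in the labels. The published fold changes matched animals 14 and 17 alone, so that animal 6 was the mouse left out.

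Frzb itself was low in animals 14 and 17 (6.72 ± 0.42, SD, n = 2) against the wild-type mice (10.32 ± 0.41, SD, n = 3), and animal 6, at 6.93, lay between animals 14 and 17. On all probe sets, however, animal 6 correlated with the wild-type arrays at a Pearson's r of 0.983 to 0.991 and with animals 14 and 17 at 0.940 to 0.957. Medians of the 6 arrays lay between 7.32 and 7.45. Cartilage markers were measured for 12 of 12 genes and bone markers for 9 of 12, and their mean levels were 11.91 to 12.61 and 11.02 to 11.73 over the 6 arrays. Markers of skeletal muscle, which is not in the labelled tissue, were also present, with the actin gene Acta1 at 13.85 to 14.61 on the log2 scale.

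In the Frzb-/- mice the listed genes showed few differences, and these went both ways. The neuronal-type glucose transporter Slc2a3 (log2 fold change -2.44), the HIF-regulated MYC antagonist Mxi1 (-0.77) and the flux regulator Pfkfb4 (-0.62) fell, whereas the related flux regulator Pfkfb3 and the vasodilator gene Adm rose by 0.65 and 0.51. At an adjusted p under 0.01 with a log2 fold change above 1 in size (limma), 0 of the 32 members were higher and 1 was lower, against 3.03% and 6.02% of all genes. At an adjusted p under 0.05 with no fold limit, 2 members were higher and 3 lower, against 13.8% and 15.3% of all genes, and at an unadjusted p under 0.05 the counts were 5 and 4, against 21.0% and 20.6% of all genes. The counts of 2 and 3 correspond to smaller shares than those of all genes, and that difference was not tested. Centring each array on its median instead gave 5 members higher and 3 lower. The median log2 fold change was 0.18 over the members and 0.04 over all genes, with 25 members above 0 and 7 below. Frzb-/- and wild-type arrays did not overlap for 10 members on the higher side and 4 on the lower side, close to the 31.0% of all genes on the higher side and below the 28.1% on the lower side. For 29 of the 32 members both 95% limits of the difference were within 1 on the log2 scale, the exceptions being Slc2a3, Mxi1 and Ddit4.

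**Figure D1:**
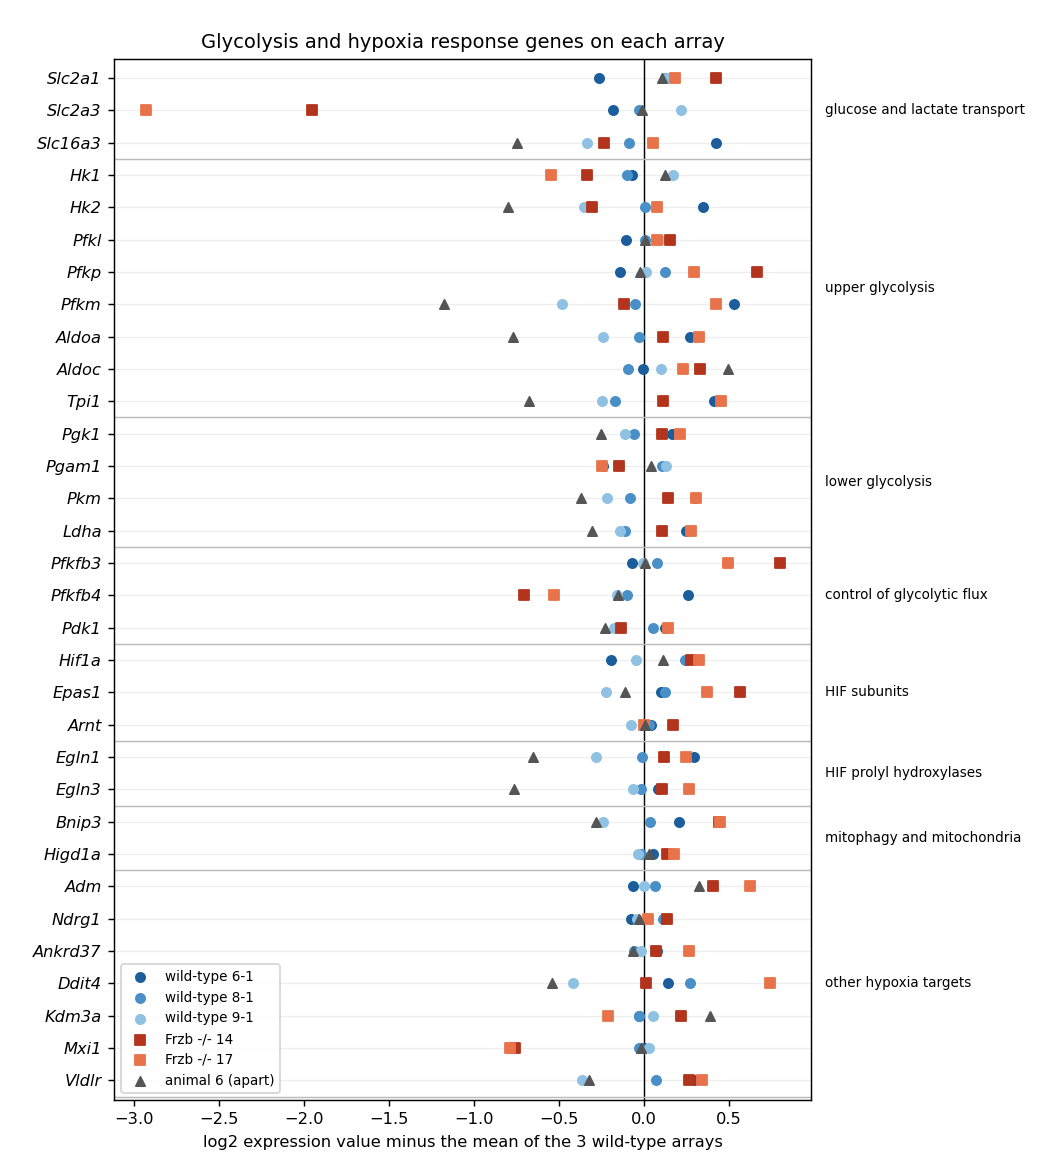
Each point is 1 array, placed by its log2 expression value minus the mean of the 3 wild-type arrays, for the 32 measured members grouped by role. Slc2a3 lies furthest from 0 in animals 14 and 17, most other members stay within 1 of the wild-type mean on every array, and animal 6 is the lowest array for 14 members.

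**Figure D2:**
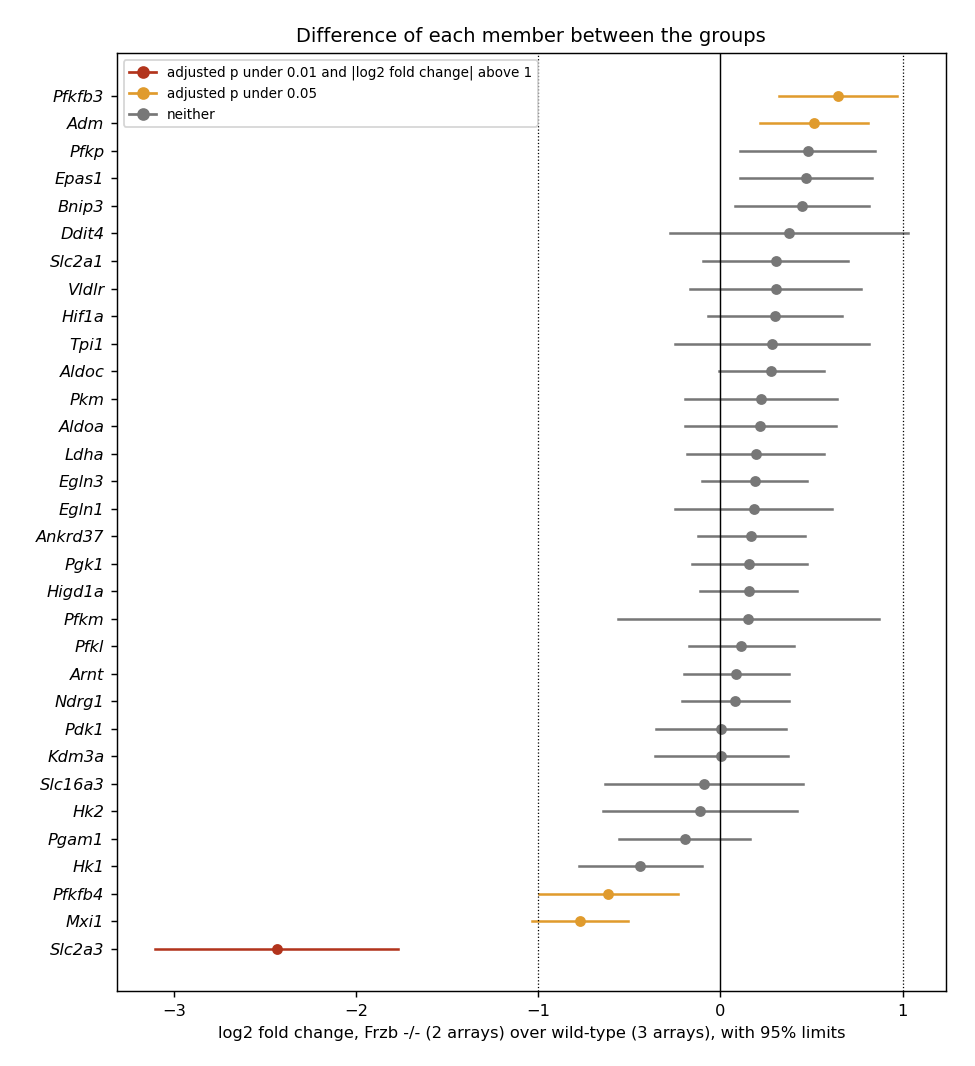
Points are the log2 fold change of Frzb-/- (2 arrays) over wild-type (3 arrays) from limma, and bars are the 95% limits. Dotted lines mark a log2 fold change of 1 in each direction, and only Slc2a3 has a whole interval beyond it.

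HIF binds the core letters ACGTG or GCGTG, and the promoters of the called members are shown with these letters because they differ in how often they hold them. Windows of 250 bases before to 50 after the start were taken from RefSeq (GRCm38.p6), which held 29 of the 32 measured members and no window for Slc2a3, Epas1 or Ndrg1. Both letter strings were searched on both strands, and CACGTG, which holds a match on each strand, counted as 2 matches. At least 1 match in any window was found for 27 of the 29 members (93.1%) and for 46.7% of the 27025 genes in the table. The members were listed as genes of glycolysis and the low-oxygen response, so that a high share was likely before counting. The difference in shares was not tested. Pfkfb3 (chr2:11502041-11502340, minus strand) held 4 matches in the window shown and 1 in its other window. Adm (chr7:110627407-110627706, plus strand) held 2, Pfkfb4 (chr9:108991652-108991951, plus strand) 1, and Mxi1 (chr19:53329163-53329462, plus strand) 1 in the window shown. Ldha (chr7:46845554-46845853, plus strand), whose level did not pass either threshold, is added as the member window with the most matches (7). Capitals mark the matches, and a match describes letters and not binding.
Pfkfb3: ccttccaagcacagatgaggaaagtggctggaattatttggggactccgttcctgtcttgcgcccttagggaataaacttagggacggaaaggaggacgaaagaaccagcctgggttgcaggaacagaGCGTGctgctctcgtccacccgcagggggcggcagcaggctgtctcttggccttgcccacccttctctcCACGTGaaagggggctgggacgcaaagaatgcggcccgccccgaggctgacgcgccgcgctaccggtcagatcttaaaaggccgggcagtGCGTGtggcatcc
Adm: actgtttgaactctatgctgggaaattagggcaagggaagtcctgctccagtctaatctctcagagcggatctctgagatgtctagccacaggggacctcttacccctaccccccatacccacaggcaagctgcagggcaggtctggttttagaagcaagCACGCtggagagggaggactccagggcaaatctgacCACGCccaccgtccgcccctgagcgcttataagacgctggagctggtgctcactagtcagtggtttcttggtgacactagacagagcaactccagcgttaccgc
Pfkfb4: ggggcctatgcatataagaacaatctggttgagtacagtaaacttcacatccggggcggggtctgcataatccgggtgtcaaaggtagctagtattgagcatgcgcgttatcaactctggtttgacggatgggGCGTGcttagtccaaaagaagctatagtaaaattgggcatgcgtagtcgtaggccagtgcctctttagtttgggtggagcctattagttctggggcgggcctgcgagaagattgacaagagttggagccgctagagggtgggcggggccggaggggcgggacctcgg
Mxi1: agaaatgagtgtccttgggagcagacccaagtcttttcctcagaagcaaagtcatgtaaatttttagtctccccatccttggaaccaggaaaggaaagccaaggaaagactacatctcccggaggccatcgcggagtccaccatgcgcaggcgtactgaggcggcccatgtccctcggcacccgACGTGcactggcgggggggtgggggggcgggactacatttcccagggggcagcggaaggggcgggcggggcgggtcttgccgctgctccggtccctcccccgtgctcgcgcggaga
Ldha: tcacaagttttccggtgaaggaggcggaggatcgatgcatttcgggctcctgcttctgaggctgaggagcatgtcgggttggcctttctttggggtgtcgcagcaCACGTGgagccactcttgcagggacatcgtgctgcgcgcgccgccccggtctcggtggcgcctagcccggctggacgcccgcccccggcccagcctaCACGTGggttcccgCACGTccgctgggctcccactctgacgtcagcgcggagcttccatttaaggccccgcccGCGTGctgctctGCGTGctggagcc

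Among the transporters, Slc2a3 (GLUT3, a high-affinity glucose carrier) was the one with a large difference. The wild-type mice measured 11.09, 11.24 and 11.49, and Frzb-/- animals 14 and 17 measured 9.33 and 8.35, with animal 6 at 11.26. Both Frzb-/- arrays were below every other array, and animal 6 lay inside the wild-type range. The log2 fold change was -2.44 (SE 0.28, adjusted p = 0.00191), a level 5.42-fold lower. A second probe set moved alike (-2.41, adjusted p = 0.00312), whereas the dimmest probe set, at 4.02 to 4.49 on the 6 arrays, did not pass (adjusted p = 0.104). Without wild-type mouse 8-1 the adjusted p rose to 0.0112, and it no longer met the stricter threshold, and with animal 6 counted as Frzb-/- no member was called at either threshold.

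The fall of Slc2a3 went along with markers of marrow cells. All 16 measured neutrophil markers were lower under the stricter rule, with a mean level of 11.28 to 11.89 in wild-type mice, 8.93 and 9.40 in Frzb-/- mice and 11.47 in animal 6. Of the 15 measured erythroid markers 11 were lower and 1 higher, and their mean level was 9.81 to 10.17 in wild-type mice, 7.87 and 8.21 in Frzb-/- mice and 10.13 in animal 6. Of the 11 B cell markers 7 were lower, and all 18 genes of dividing cells were lower. In whole tissue, fewer cells of a type and less RNA per cell cannot be told apart, and the part of these cells in the fall of Slc2a3, Mxi1 or Pfkfb4 was not tested. No cartilage marker (0 of 12) was called under either rule. Adipocyte markers were higher for 3 of 10 genes, fibroblast and tendon markers for 5 of 13 and endothelial markers for 1 of 16 under the stricter rule, and for 8, 9 and 9 genes at an adjusted p under 0.05. At that threshold 1 fibroblast and tendon marker (Pi16, log2 fold change -0.90) and 1 endothelial marker (Vwf, -0.55) were lower. The mean level of the fibroblast and tendon markers was 10.08 to 10.36 in wild-type mice and 11.18 and 11.20 in Frzb-/- mice, and that of the endothelial markers 8.60 to 9.00 against 9.31 and 9.49. Their part in the rises of Pfkfb3 and Adm was not tested. Of the 9 bone markers 2, of the 12 monocyte and macrophage markers 3 and of the 10 osteoclast markers 0 were lower under the stricter rule. At an adjusted p under 0.05, 3, 4 and 1 were lower and 1, 1 and 0 higher, in that order. Of all genes, 15.3% were lower and 13.8% higher at that threshold.

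Slc2a1 (GLUT1, the widespread basal glucose carrier) did not pass the test. Its arrays nevertheless did not overlap, with 8.97, 9.36 and 9.37 in wild-type and 9.66 and 9.41 in Frzb-/- mice, and the 95% limits of the difference were -0.09 to 0.70. Slc16a3 (MCT4, which exports lactate from glycolytic cells) measured 8.81, 8.30 and 8.05 in wild-type and 8.15 and 8.44 in Frzb-/- mice, a difference of -0.09 with limits of -0.64 to 0.46. The Frzb-/- values lay within the wild-type spread.

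Bifunctional enzymes set the level of fructose-2,6-bisphosphate, the strongest activator of phosphofructokinase. The 2 of them among the members, Pfkfb3 and Pfkfb4, passed the laxer threshold, in opposite directions. Pfkfb2, measured outside the members, did not pass (log2 fold change 0.25, adjusted p = 0.191). Pfkfb3, the isoform with the highest kinase over phosphatase activity, measured 8.01, 8.15 and 8.07 in wild-type and 8.87 and 8.57 in Frzb-/- mice, and 8.08 in animal 6. The groups stood clear of each other, and animal 6 sat among the wild-type mice. It rose by 0.65 on the log2 scale (SE 0.14, adjusted p = 0.0154). Its second, dimmer probe set rose by 0.81 (adjusted p = 0.00432), with values of 5.16, 5.19 and 5.27 against 5.93 and 6.10. Without Frzb-/- animal 14 the brighter probe set no longer passed (adjusted p = 0.0641). Leaving out animal 14 or 17 leaves 1 Frzb-/- array, so that here and in all such fits the spread came from the wild-type mice and the lone array was assumed to vary like them.

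Pfkfb4, measured by a single probe set, read 9.43, 9.07 and 9.02 in wild-type and 8.47 and 8.65 in Frzb-/- mice. All wild-type values were higher than both Frzb-/- values, and animal 6, at 9.02, lay next to wild-type mouse 9-1. It fell by 0.62 on the log2 scale (SE 0.16, adjusted p = 0.0317). The call held without wild-type mouse 9-1 and was lost without any one of the other 4 mice (adjusted p up to 0.128). Pdk1, a kinase that switches off pyruvate dehydrogenase and so keeps pyruvate out of the mitochondrion, did not separate the groups. It measured 9.31, 9.24 and 9.01 in wild-type and 9.05 and 9.33 in Frzb-/- mice, with limits of -0.35 to 0.36 on the difference.

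**Figure D3:**
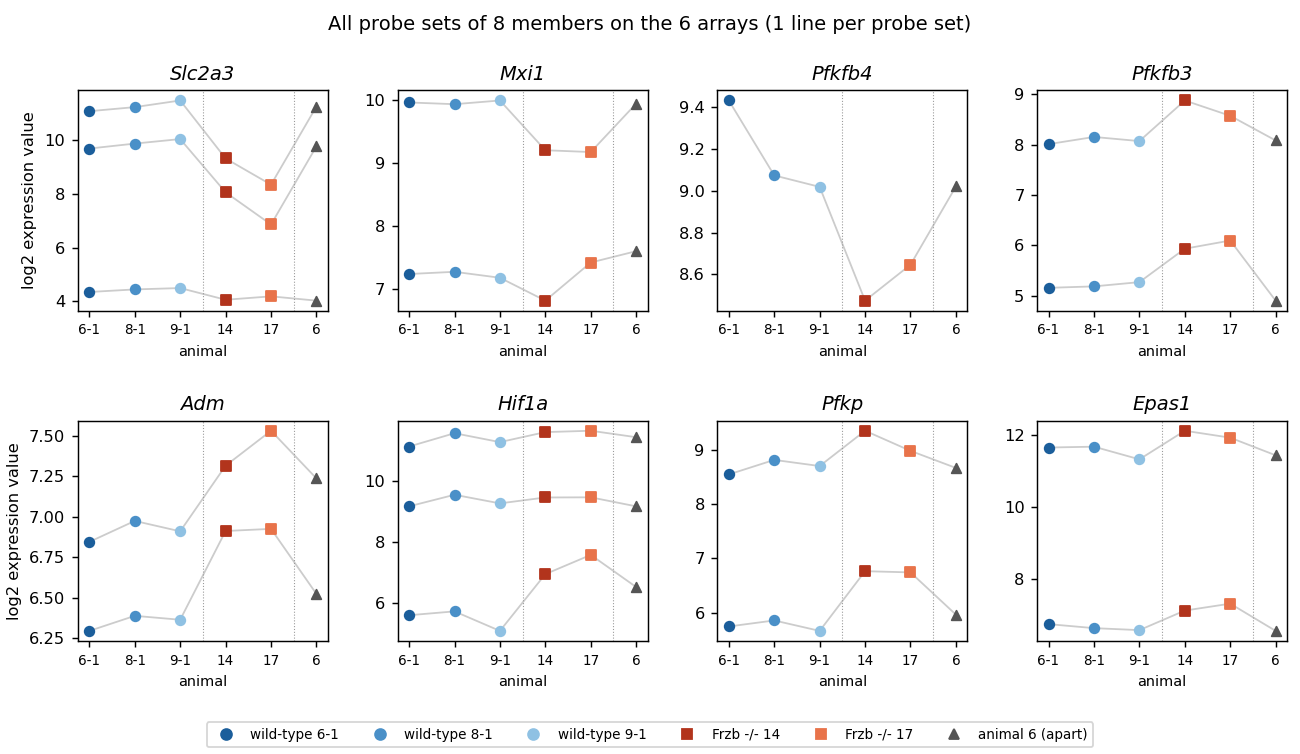
Each line joins the log2 expression values of 1 probe set over the 6 arrays, for 8 members, with wild-type arrays on the left, Frzb-/- arrays in the middle and animal 6 on the right. The axes differ between genes. Both bright Slc2a3 probe sets fall to between 6.86 and 9.33 in animals 14 and 17, and the dimmest Hif1a probe set is the one of its 3 that passed the test.

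Of the 8 measured enzymes of upper glycolysis, none passed either threshold. Hexokinases trap glucose in the cell, and Hk1, the housekeeping form, measured 10.74, 10.71 and 10.98 in wild-type and 10.48 and 10.26 in Frzb-/- mice, without overlap (log2 fold change -0.44, SE 0.14, adjusted p = 0.0607). A second Hk1 probe set differed by the same amount and passed the laxer threshold (-0.44, adjusted p = 0.03). Hk2, the insulin-responsive form of muscle and fat, measured 11.21, 10.87 and 10.51 against 10.56 and 10.94, and its groups overlapped.

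Phosphofructokinase commits glucose to glycolysis, and its 3 isoform genes gave different pictures. Pfkp, the platelet form, measured 8.54, 8.81 and 8.70 in wild-type and 9.35 and 8.98 in Frzb-/- mice, and missed the laxer threshold (log2 fold change 0.48, adjusted p = 0.0642). Its dimmer probe set measured 5.74, 5.85 and 5.66 against 6.76 and 6.74 and passed that threshold (1.00, adjusted p = 0.00215). Both Pfkp probe sets were thus higher in each Frzb-/- mouse than in any wild-type mouse. Pfkl, the liver form, overlapped, with limits of -0.17 to 0.40 on the difference. Pfkm, the muscle form, had the widest wild-type spread of the members, with 13.38, 12.80 and 12.37 against 12.73 and 13.27 in Frzb-/- mice, and limits of -0.56 to 0.87.

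Aldolase splits the 6-carbon sugar. Its main form Aldoa measured 14.19, 13.89 and 13.68 in wild-type and 14.03 and 14.24 in Frzb-/- mice, and the groups overlapped. Aldoc, the brain-type aldolase, did not overlap (7.25, 7.16 and 7.35 against 7.58 and 7.49) but missed both thresholds (adjusted p = 0.139), and animal 6, at 7.75, was higher than all other arrays. Triosephosphate isomerase (Tpi1) measured 13.12, 12.53 and 12.46 against 12.81 and 13.16, with overlap.

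In lower glycolysis all 4 measured enzymes overlapped between the groups and none passed. Pgk1, which makes the first ATP of the pathway, differed by 0.16 with limits of -0.16 to 0.48. Pgam1 (phosphoglycerate mutase) differed by -0.20 with limits of -0.56 to 0.16. Pkm (pyruvate kinase) and Ldha (which turns pyruvate into lactate) differed by 0.22 and 0.19, with limits of -0.19 to 0.64 and -0.18 to 0.57. Wild-type mouse 6-1 was higher than the other wild-type mice for Pgk1, Pkm and Ldha. The Gapdh probe sets shared with pseudogenes did not pass either (adjusted p = 0.488 and 0.16).

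The 3 HIF subunits did not pass on their brightest probe sets. Epas1, which encodes HIF-2alpha, measured 11.64, 11.66 and 11.31 in wild-type and 12.10 and 11.91 in Frzb-/- mice, with no overlap (log2 fold change 0.47, SE 0.15, adjusted p = 0.0633). Its dimmer probe set passed the laxer threshold (0.56, adjusted p = 0.0188).

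Hif1a, which encodes HIF-1alpha, was measured by 3 probe sets that disagreed. The brightest measured 11.14, 11.58 and 11.29 in wild-type and 11.62 and 11.66 in Frzb-/- mice, with limits of -0.07 to 0.67, and the middle one differed by 0.13. The dimmest measured 5.61, 5.74 and 5.10 against 6.96 and 7.59, with animal 6 between them at 6.54, and passed the stricter threshold (1.79, SE 0.25, adjusted p = 0.00362). The cause of the disagreement was not tested. Arnt, the partner of both alpha subunits, overlapped between the groups, with limits of -0.20 to 0.37.

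Neither HIF prolyl hydroxylase gene passed. Egln1 (PHD2, the main oxygen sensor) overlapped, at 10.55, 10.25 and 9.97 in wild-type and 10.38 and 10.50 in Frzb-/- mice. Egln3 (PHD3, itself a HIF target) did not overlap, at 8.00, 7.90 and 7.85 against 8.02 and 8.18, with an adjusted p of 0.302. In animal 6, Egln1 measured 9.61 and Egln3 7.15, and both were lower there than on every other array.

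Of the genes acting on mitochondria, Bnip3, a receptor for mitophagy, was higher in both Frzb-/- mice (11.27 and 11.28) than in any wild-type mouse (11.03, 10.86 and 10.59). The difference of 0.45 (SE 0.16) missed the laxer threshold at an adjusted p of 0.0767 and passed it when each array was centred on its median. Higd1a, a respiratory chain assembly factor induced by hypoxia, did not overlap on its brightest probe set, with a difference of 0.16 (adjusted p = 0.352). Its other probe sets differed more and passed the laxer threshold (0.49 with adjusted p = 0.0354, and 0.68 with adjusted p = 0.00721). The 3 probe sets that Bnip3l shares with a pseudogene were 1.64-fold, 2.00-fold and 1.80-fold lower in the Frzb-/- mice (adjusted p = 0.0163, 0.00462 and 0.00362), and cannot be assigned to either gene.

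Among the other hypoxia targets, Adm, which encodes the vasodilator peptide adrenomedullin, rose. It measured 6.85, 6.97 and 6.91 in wild-type and 7.32 and 7.53 in Frzb-/- mice, and 7.24 in animal 6. Animal 6 thus lay above the wild-type mice and below both Frzb-/- mice. The log2 fold change was 0.51 (SE 0.13, adjusted p = 0.0254), and a second probe set gave 0.57 (adjusted p = 0.0119). Both probe sets were dim, the second at 6.30 to 6.93, and a filter for probe sets above the median of all probe sets left Adm out. The call was lost without any one of the 3 wild-type mice or Frzb-/- animal 17 (adjusted p up to 0.12). The fit without animal 14, which tests the single array of animal 17, gave an adjusted p of 0.0347.

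Mxi1, a repressor that competes with MYC for MAX, had the smallest spread among the wild-type mice of the members. It measured 9.95, 9.93 and 9.98 in wild-type and 9.20 and 9.17 in Frzb-/- mice, with animal 6 at 9.93. The Frzb-/- pair lay well apart from the other 4 arrays, which were almost alike. It fell by 0.77 on the log2 scale (SE 0.11, adjusted p = 0.00383), and the adjusted p was up to 0.0242 when each mouse was left out in turn, with 1 Frzb-/- array and the spread of the wild-type mice in the fits without animal 14 or 17. Its dimmer probe set did not follow, at 7.24, 7.27 and 7.18 in wild-type and 6.81 and 7.42 in Frzb-/- mice (adjusted p = 0.692).

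The remaining 5 targets did not pass. Ddit4 (REDD1, an inhibitor of mTORC1) spread over 8.41, 8.53 and 7.85 in wild-type and 8.27 and 9.00 in Frzb-/- mice, and its limits of -0.28 to 1.03 reached beyond 1. Vldlr, a lipoprotein receptor, differed by 0.30 with limits of -0.17 to 0.77. Ndrg1, a stress-induced gene of the N-myc downstream-regulated family, differed by 0.08 with limits of -0.21 to 0.37. The histone demethylase gene Kdm3a had limits of -0.36 to 0.37, and Ankrd37, an ankyrin repeat gene induced by HIF, had limits of -0.13 to 0.46. Arrays of the 2 groups overlapped for all 5 of these genes.

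Of the 73 probe sets of the members, 9 (12.3%) were higher and 5 (6.85%) lower at an adjusted p under 0.05, against 11.7% and 14.8% of all probe sets. The 9 belonged to Pfkfb3, Adm, Pfkp, Epas1, Hif1a and Higd1a, and the 5 to Slc2a3, Mxi1, Pfkfb4 and Hk1. For 5 genes (Epas1, Hif1a, Higd1a, Hk1 and Pfkp) the call came from a dimmer probe set alone.

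Animal 6 differed from the other mice in another set of members. It was the lowest of all 6 arrays for 14 members and the highest for 2, against 19.9% and 14.5% of all genes. Among the 14 were isoforms known from muscle. Pfkm measured 11.67 in animal 6, below the 13.38, 12.80 and 12.37 of the wild-type mice, Aldoa measured 13.15 and Hk2 10.06. Against the wild-type mice, 0 members passed an adjusted p under 0.05 (smallest 0.616), and 8 had an unadjusted p under 0.05 (Slc16a3, Hk2, Pfkm, Aldoa, Aldoc, Tpi1, Egln1 and Egln3), against 5.59% of all genes, in a limma fit in which the single array takes its spread from the other groups. Against animal 6, the 2 other Frzb-/- mice were higher for Aldoa and Egln3 (adjusted p = 0.032 and 0.0129) and lower for Slc2a3 and Mxi1 (adjusted p = 0.0098 and 0.0193), that is 2 members each way against 8.13% and 11.0% of all genes.

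Skeletal muscle markers moved with these members from array to array. The mean of the 18 measured markers was 13.52, 13.03 and 12.72 in wild-type mice 6-1, 8-1 and 9-1, 13.02 and 13.43 in Frzb-/- animals 14 and 17, and 12.08 in animal 6. None of the 18 was called between Frzb-/- and wild-type mice under either rule, and 17 of the 18 were lowest in animal 6. The same order of arrays (6-1 over 8-1 over 9-1, 17 over 14, animal 6 last), chosen after the values were seen, was found for 16 of the 18 markers, for 12 of the 32 members and for 7.40% of all genes. The 12 members were Slc16a3, Hk2, Pfkm, Aldoa, Tpi1, Pgk1, Pkm, Ldha, Pdk1, Egln1, Egln3 and Bnip3. None of the 5 members called between the groups was among them. A member lower in the Frzb-/- mice than in animal 6 cannot have this order, which bars Slc2a3, Mxi1 and Pfkfb4 in advance. Adipocyte markers held part of this pattern. Their means were 10.46, 10.08 and 9.74 in wild-type mice 6-1, 8-1 and 9-1, and 9.52 in animal 6. In animals 14 and 17 they were 11.08 and 11.02, and 8 of the 10 adipocyte markers were lowest in animal 6. The part of muscle or fat tissue in the levels of these 12 members or of the 5 called members was not tested.

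**Figure D4:**
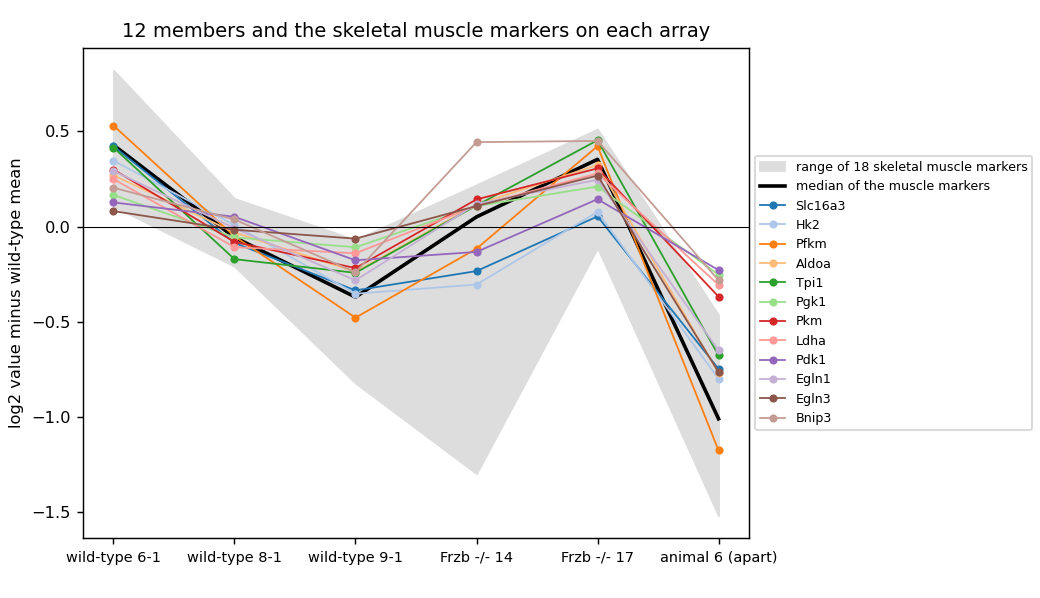
Lines show the log2 value minus the wild-type mean on each array for the 12 members that share the array order of most muscle markers, the black line is the median of the 18 skeletal muscle markers, and the grey band spans their lowest to highest. The black line is highest on array 6-1 among the wild-type arrays and on array 17 among the Frzb-/- arrays, and it drops on the array of animal 6. The members were picked for this order, so that their match with the black line follows from the choice.

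Other genes of the same pathways were examined from lists. Of 24 measured genes of glycolysis and lactate transport that are not members, 1 was higher and 4 were lower under the stricter rule. The shares of all genes were 3.03% and 6.02%, and the median log2 fold change of the 24 genes was 0.19. At an adjusted p under 0.05, 4 were higher and 7 lower, against 13.8% and 15.3% of all genes. Slc2a12 (GLUT12) rose by 1.02 on the log2 scale. Hk3, the hexokinase of myeloid cells, had a log2 fold change of -2.35, the ADP-dependent glucokinase Adpgk of -1.56, and Slc16a1 (MCT1, which carries lactate both ways) of -1.72. Bpgm, which makes the 2,3-bisphosphoglycerate of red cells, fell as well (-1.84). These 4 falls went along with the neutrophil and erythroid markers described above, and the part of those cells was not tested.

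Gluconeogenesis runs glycolysis in reverse and held the largest rise of the genes listed here. Pck1, the rate-limiting phosphoenolpyruvate carboxykinase, measured 7.91, 7.48 and 8.01 in wild-type and 10.84 and 10.43 in Frzb-/- mice, with animal 6 at 7.65. Both Frzb-/- arrays were far above the rest, and it rose by 2.84 on the log2 scale (adjusted p = 0.000972). Pcx, pyruvate carboxylase, rose by 1.23 (adjusted p = 0.0046), and of the other 5 measured genes none passed the stricter rule. Of all genes 3.03% were higher under that rule. At an adjusted p under 0.05, 2 of the 7 genes were higher and 1 was lower, against 13.8% and 15.3% of all genes. The lower gene was Pck2 (log2 fold change -0.49, adjusted p = 0.0362). Adipocytes use the enzymes of Pck1 and Pcx for glycerol synthesis. The mean level of the 10 measured adipocyte markers was 9.74 to 10.46 in wild-type and 11.02 and 11.08 in Frzb-/- mice, and 9.52 in animal 6. The part of adipocytes in the rises of Pck1 and Pcx was not tested.

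Of 7 measured genes of the pentose phosphate pathway, which branches from glycolysis to make NADPH and ribose, 1 was lower under the stricter rule (Rpia, -1.15) and 4 at an adjusted p under 0.05, with none higher and a median of -0.54. Pyruvate dehydrogenase and its kinases (11 genes), glycogen metabolism (15 genes) and the HIF regulators outside the members (13 genes) had no call under the stricter rule. At an adjusted p under 0.05 the counts were 1 higher and 1 lower, 1 higher and 1 lower, and 0 higher and 2 lower, in that order. Of all genes, 3.03% were higher and 6.02% lower under the stricter rule. At an adjusted p under 0.05 the shares were 13.8% and 15.3%, and the lists were not tested against them. Of the same 15 glycogen genes 10 were lowest in animal 6, as were 7 of the 11 pyruvate dehydrogenase genes, against 19.9% of all genes.

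Among 46 measured hypoxia-induced genes outside the members, 3 were higher and 2 lower under the stricter rule, against 3.03% and 6.02% of all genes. At an adjusted p under 0.05, 11 were higher and 5 lower, against 13.8% and 15.3% of all genes. The median log2 fold change was 0.21, with 33 genes above 0 and 13 below. Bhlhe40, a repressor of the circadian clock family, rose by 1.15, Tgfb3, a growth factor of the TGF-beta family, by 1.04 and Igfbp3, which binds insulin-like growth factors, by 1.23. The transferrin receptor gene Tfrc, abundant in red cell precursors, had a log2 fold change of -1.40, and Cxcr4, a chemokine receptor of marrow cells, of -2.94. Vegfa and Car9, genes often read as indicators of hypoxia, did not pass. Their differences were -0.09 and 0.11, with limits of -0.47 to 0.30 and -0.26 to 0.49. Both were picked with their values known and do not stand for the list.

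**Figure D5:**
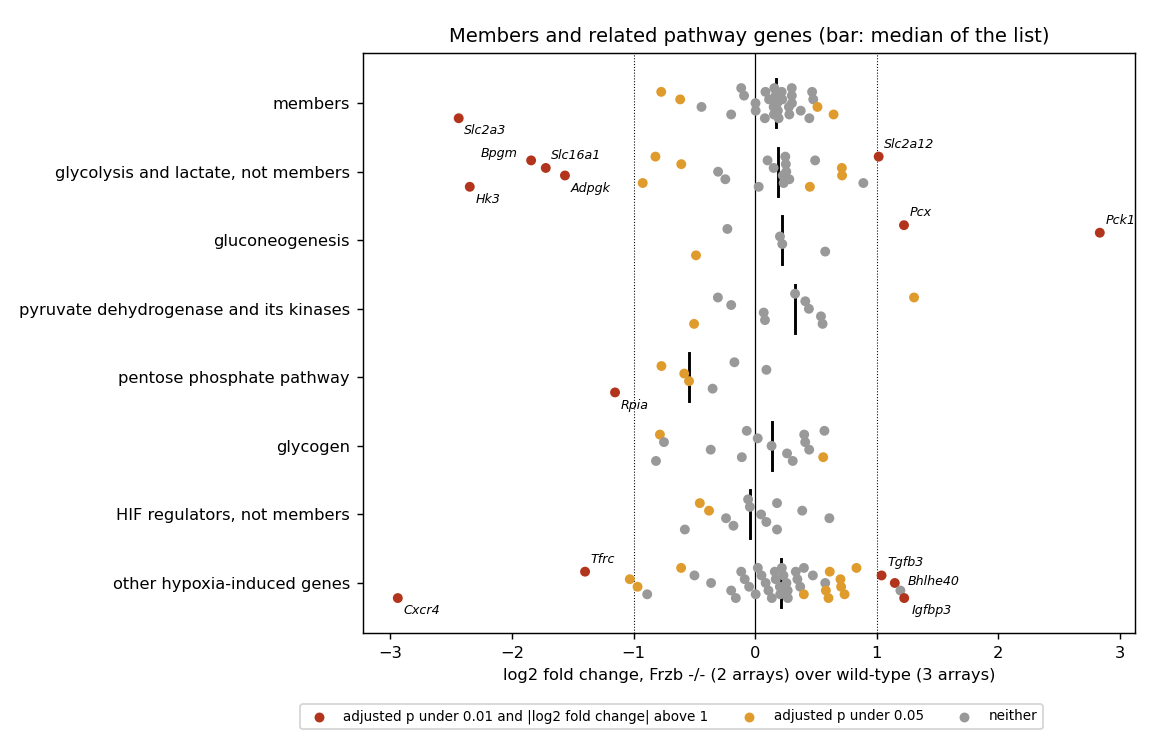
Each point is 1 gene, placed by its log2 fold change of Frzb-/- over wild-type, in rows for the 32 members and 7 lists of related genes, with the median of each as a bar. Named genes passed an adjusted p under 0.01 with a log2 fold change above 1 in size. The 32 members hold 1 such gene, which was lower, and the 24 other glycolysis genes hold 1 higher and 4 lower. Of all genes 3.03% were higher and 6.02% lower, and the lists were not tested against each other.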

How the data were processed

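RNA from 1 joint of each of 6 mice was hybridised to 1 array per mouse. The deposited table holds log2 expression values that the authors computed with RMA (affy 1.20.0 in the submitters' processing notes), which corrects background, normalises by quantiles and summarises probes per probe set. It holds 30618 probe sets and no detection calls, and all were tested. The study's methods describe the removal of control and absent probe sets, so that shares of all genes may be shares of detected genes only. Probe sets were named from GEO's platform annotation: 25090 had 1 gene symbol, 677 several and 4851 none.

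The array set was identified because the mean differences of animals 14 and 17 from the wild-type mice matched 38 of 38 lines of the published list of top genes within 0.01 (lines of Frzb and Pck1 were left out, since values of these genes are printed here and no published value was to stand beside them), whereas every other choice of labelled Frzb-/- arrays matched 0. Wild-type and Frzb-/- mice were compared with limma 3.58.1 (lmFit and eBayes, two-sided) in R 4.3.3, with Benjamini-Hochberg adjustment over all 30618 probe sets. A gene was called at an adjusted p under 0.01 with a log2 fold change above 1 in size, or at the laxer adjusted p under 0.05. Limits are 95% limits from the moderated fit. Animal 6 was fitted as a group of its own. The recovery of known shifts by the fit was tested on simulated data. Arrays have no read depth, and the number of mice limits the precision. The replicates are separate mice.

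All members are named, with those genes of the related lists that passed the stricter rule. Vegfa, Car9, Pfkfb2 and Pck2 are named outside that rule, with their values known. The members and the gene lists were chosen with earlier results of these data known. The 13 alternatives covered the samples, a filter on dim probe sets, normalisation, moderation and the choice of probe set. Python 3.11.15 and matplotlib 3.10.9 were used for tables and figures.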

Additional observations from a re-analysis of the deposited data

How the results depend on the processing

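The limma calls of the members depended on which arrays were used. Counting animal 6 as Frzb-/- puts the mouse that the study left out as heterozygous into that group. By the study's genotype this fit mixes genotypes. Frzb itself, however, was as low in animal 6 (6.93) as in animals 14 and 17 (7.02 and 6.42). The genotype of animal 6 was not tested here. With animal 6 counted as Frzb-/-, members lower under the stricter rule went from 1 to 0, members higher at an adjusted p under 0.05 from 2 to 0 and members lower from 3 to 0, and 3 members had an unadjusted p under 0.05. Without moderation of the spread the same 3 counts were 0, 0 and 0, with 8 members at an unadjusted p under 0.05. The dimmest probe set gave 1 member higher (Hif1a) and 0 lower under the stricter rule, and 6 higher at an adjusted p under 0.05. The mean over probe sets also gave 6 higher, centring on the median 5, and the filter on dim probe sets, which kept 30 members, 1. Leaving out each mouse in turn gave 0 to 1 members lower under the stricter rule (0 without wild-type mouse 8-1), 1 to 1 higher and 2 to 3 lower at an adjusted p under 0.05. Over these fits the log2 fold change was -2.93 to -1.95 for Slc2a3, -0.79 to -0.76 for Mxi1, -0.70 to -0.49 for Pfkfb4, 0.49 to 0.80 for Pfkfb3 and 0.41 to 0.62 for Adm. Cyclic loess and trended moderation left the counts within 1.5 times. The causes were not tested.

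Sign changes touched members that were not called. With animal 6 included, the log2 fold change was -0.29 for Pfkm, -0.11 for Aldoa, -0.038 for Tpi1, -0.073 for Pdk1, -0.10 for Egln1 and -0.13 for Egln3. Over the fits that left out 1 mouse, the log2 fold change crossed 0 for Slc16a3 (-0.26 to 0.12), Hk2 (-0.31 to 0.077), Pfkm (-0.12 to 0.42), Pdk1 (-0.13 to 0.14) and Kdm3a (-0.21 to 0.22). Of all comparisons of a member with its main value, 392 kept their direction and their side of the stricter rule, 17 changed sign, 4 lost the stricter call (Slc2a3) and 1 gained it. At the laxer threshold, 21 of 64 comparisons of a called member lost the call, and 15 of members not called gained one. Leaving out 1 mouse took it from Pfkfb4 and Adm in 4 of 5 fits each and from Pfkfb3 in 1. The fits without animal 14 or 17 hold 1 Frzb-/- array, assumed to vary like the wild-type mice. No paired analysis was possible because the animal numbers do not pair wild-type with Frzb-/- mice.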
